A study of Mus musculus with 8 samples.

Results

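Aminoacyl-tRNA synthetases are the enzymes that join each amino acid to its tRNA, and 36 of them are described here in the tibialis anterior of old mice, a shin muscle made mostly of fast fibres. They were found as the rows of a table of 48328 genes whose Ensembl identifiers carry the synthetases' symbols in GENCODE M21. The 20 genes without a final 2 in their symbol were taken as cytosolic (Mars1 among them), and the 16 with a final 2 as mitochondrial. Gars and Kars, counted here as cytosolic, are known to supply both compartments from 1 gene each.

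The mice were C57BL/6J animals aged 24 months, 4 with the genotype K320E-skm and 4 wild-type. In K320E-skm mice the skeletal muscle makes a dominantly acting mutant Twinkle, a protein that Twnk encodes and which unwinds mitochondrial DNA for its replication. The promoter that drives the mutant form is not given in the sources used here, and no treatment is named. RNA came from the lower part of the muscle, so the libraries hold all of its cell types. In such bulk samples fewer cells of a type and less RNA per cell cannot be told apart. Of each genotype 2 libraries were labelled male and 2 female, but K320E-skm 4, labelled male, held Xist at 10.2 FPKM and Ddx3y, a Y-linked gene, at 0.0117 FPKM. The sex label was therefore left out of the main fit.

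Values are FPKM, fragment numbers relative to the length of the transcript and to all mapped fragments of the library, a level per length that allows genes to be compared with each other. They summed to 731824 to 858029 per library, and 10167 to 11581 genes reached 1 FPKM. Twnk was higher in every K320E-skm library, at 3.82, 4.93, 5.06 and 4.66 FPKM, than in any wild-type library, at 2.16, 2.40, 2.21 and 2.70 FPKM. Of the skeletal muscle fibre genes used to check the tissue, 8 summed to 25278 to 29517 FPKM in K320E-skm muscle and to 31760 to 33321 FPKM in wild-type libraries (exact permutation p = 0.0286, two-sided, the smallest that 4 against 4 allows). Myh4, a fast myosin, was left out of this sum because it is listed at 0 in 4 libraries. The 2 mitochondrial ribosomal RNA genes took 41.5% to 46.9% of the summed FPKM in K320E-skm muscle and 31.2% to 37.5% in wild-type libraries. Over the 10521 tested genes, the log2 fold change of K320E-skm over wild-type muscle had a median of -0.14 on the deposited values and of 0.00 after the libraries were rescaled by the median ratio of their genes. The part of the ribosomal RNA in this shift was not tested. The fibre gene sums above are as deposited and were not computed after rescaling. The 9 tested fibre genes had a median log2 fold change of -0.27 as deposited and -0.09 after rescaling. Of these, 2 were lower without overlap as deposited, against 9.59% of all genes, and 0 after rescaling, against 2.98%. Levels, sums and differences below are as deposited unless said to be rescaled, and the differences as deposited should be read against -0.14.

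Synthetases fall into 2 structural classes and work at the first step of translation, where an error in the choice of amino acid would pass into protein. In the cytosol, several of them sit together with scaffold proteins in the multisynthetase complex, and the others act alone or in pairs of subunits. The mitochondrial enzymes are encoded in the nucleus and imported, and they charge the tRNAs that mitochondrial DNA encodes. Many cytosolic synthetase genes are known targets of ATF4, a transcription factor of the integrated stress response, which binds together with a C/EBP partner to C/EBP-ATF response elements.

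Promoters of 27 of the 36 genes, 13 cytosolic and 14 mitochondrial, were in the RefSeq table used (build GRCm38.p6), which gives 250 bases before to 50 bases after the start site. Cars, Hars, Lars, Nars, Rars, Vars, Wars, Hars2 and Pars2 had no entry. The letters TGATGNAA, the core of the C/EBP-ATF response element, were searched on both strands. They stood in the promoters of 5 of the 13 cytosolic genes, Aars, Gars, Iars, Tars and Yars, in 0 of the 14 mitochondrial genes, and in 4.51% of all 27025 genes in the table. Stretches of Gars, Iars, Tars and Yars are shown because these promoters differ in this way between both sets. Each is 30 bases long on the gene's own strand, 5′ to 3′, with the match in capitals, and TTGCATCA is the same element read on the opposite strand.
Gars, chr6:55037960-55037989, plus strand: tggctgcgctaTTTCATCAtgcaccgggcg
Iars, chr13:49682126-49682155, plus strand: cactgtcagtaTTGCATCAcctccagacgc
Tars, chr15:11399655-11399684, minus strand: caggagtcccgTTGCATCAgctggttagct
Yars, chr4:129189895-129189924, plus strand: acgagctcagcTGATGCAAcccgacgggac

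The same letters were found in 3 of 12 stress genes chosen as known regulators and targets of the response. These were Asns, which makes asparagine, Chac1, which degrades glutathione, and Trib3, a pseudokinase, and they are shown for comparison.
Asns, chr6:7693214-7693243, minus strand: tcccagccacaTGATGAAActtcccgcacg
Chac1, chr2:119351038-119351067, plus strand: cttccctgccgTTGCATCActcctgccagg
Trib3, chr2:152344028-152344057, minus strand: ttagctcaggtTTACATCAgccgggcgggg

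The matches shown began 30 bases before the start site in Gars and 15 bases before it in Tars, and at bases 8 and 4 after it in Iars and Yars. For the other motifs searched the counts of both sets were closer. The NRF1 motif (GCGCA, any base, then GCGC) matched Farsb, Kars and Tars among the cytosolic and Iars2 and Mars2 among the mitochondrial promoters (5.19% of all genes). The ETS motif CCGGAAGT matched Farsa and Mars1 and, of the mitochondrial promoters, Rars2 (4.31% of all genes). The cyclic AMP response element TGACGTCA matched 0 promoters of either set (2.03% of all genes). Such a match describes letters and does not show that a factor binds there.

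In wild-type muscle, the cytosolic synthetases were the more abundant set. Their mean levels ran from 5.88 to 44.4 FPKM with a median of 11.5, and those of the mitochondrial synthetases other than Lars2 from 0.619 to 9.27 FPKM with a median of 3.40. Eprs, which charges both glutamate and proline, was the highest cytosolic gene at 44.4 ± 5.64 FPKM (SD, n = 4), before Kars, which charges lysine, at 26.7 ± 2.62 and Sars, which charges serine, at 25.6 ± 3.21. Kars and Sars did not differ beyond their spread. Farsa, the catalytic subunit of the phenylalanine enzyme, was the lowest at 5.88 ± 0.743 FPKM, while its partner subunit Farsb stood at 17.8 ± 1.54 FPKM.

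**Figure D1:**
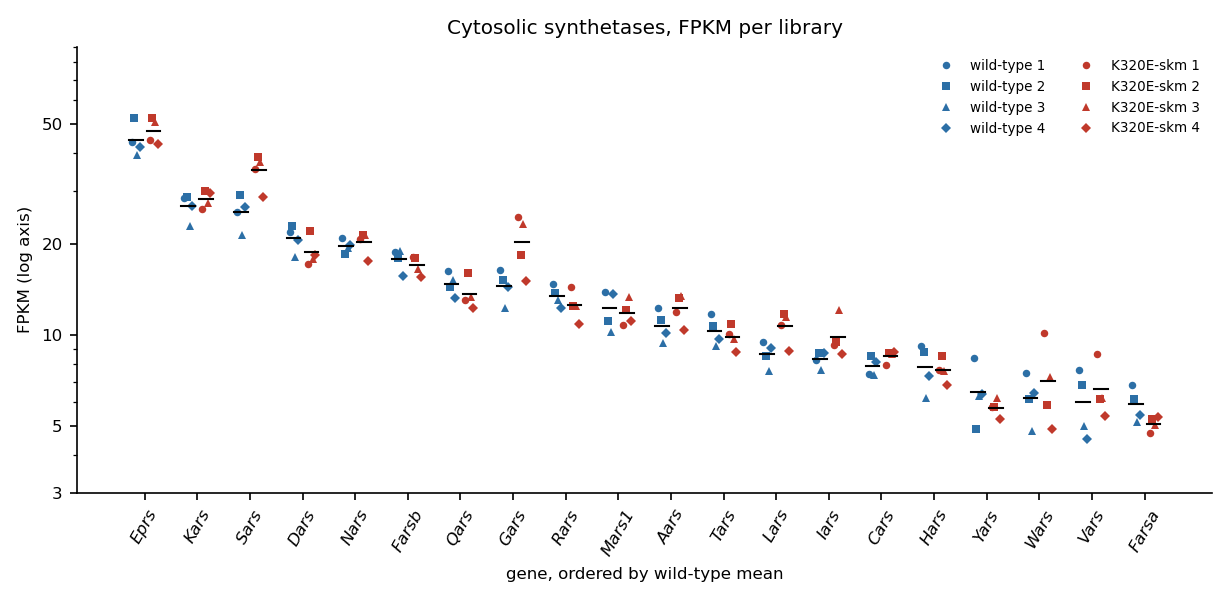
FPKM of the 20 cytosolic synthetases on a log axis, 1 marker per library (wild-type blue, K320E-skm red) and a bar at each group mean, ordered by wild-type mean. Eprs is the highest, and Sars and Gars show the widest distance between the group means.

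Among the mitochondrial enzymes, Iars2 for isoleucine stood at 9.27 ± 1.01 FPKM and Fars2 for phenylalanine at 7.47 ± 0.859 FPKM in the wild type. Mars2 for methionine was the lowest. It reached 0.402, 0.608, 0.493 and 0.563 FPKM in the K320E-skm libraries and 0.702, 0.520, 0.565 and 0.687 FPKM in the wild-type libraries, and these ranges overlapped. As it never reached 1 FPKM, Mars2 was not tested, which left all 20 cytosolic and 15 of the 16 mitochondrial genes in the fit. The wild-type coefficient of variation had a median of 11.2% over the cytosolic and 19.0% over the 15 mitochondrial genes without Lars2.

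**Figure D2:**
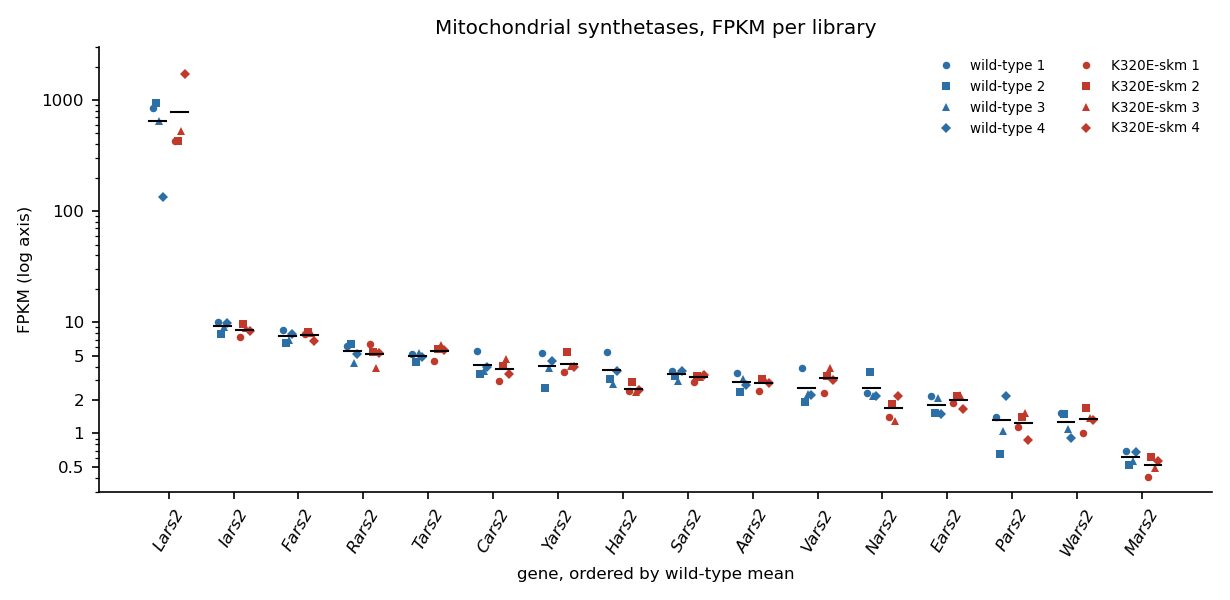
FPKM of the 16 mitochondrial synthetases on a log axis, 1 marker per library (wild-type blue, K320E-skm red) and a bar at each group mean, ordered by wild-type mean. Lars2 lies far above the other 15 genes and spreads from 135 to 1726 FPKM.

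The comparison of K320E-skm with wild-type muscle asks whether the transcripts of the charging enzymes differ in muscle with the mutant helicase. No synthetase passed an adjusted p under 0.05 in limma over all tested genes, on either scale. The smallest adjusted p was 0.289 as deposited and 0.311 after rescaling, both for Sars. Of all 10521 genes, 1 higher and 1 lower gene passed on each scale, or 0.0095% in each direction. Twnk, higher without overlap as deposited like 0.333% of all genes, did not pass on either scale. Its log2 fold change was 0.74 (limma adjusted p = 0.182), and 0.87 after rescaling (limma adjusted p = 0.0897). At an unadjusted p under 0.05, 2 cytosolic genes were higher and 0 lower as deposited, against 1.07% higher and 13.6% lower of all genes, and 2 mitochondrial genes were lower and 0 higher. After rescaling, 7 cytosolic genes were higher and 0 lower, against 5.19% and 4.6% of all genes, and of the mitochondrial genes 2 were higher and 1 lower. On simulated data, the same fit found 9 of 100 genes changed by 0.5 and 75 of 100 changed by 1 on the log2 scale. The changed genes were drawn only from those with a mean log2(FPKM + 1) above 2, so these shares do not cover lower genes such as Pars2 and Wars2.

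The medians of both sets lay above the median gene on both scales. The log2 fold changes of the cytosolic set had a median of 0.06 as deposited and 0.24 after rescaling. As deposited, 19 of its 20 members and 13 of the 15 mitochondrial genes exceeded the median of all genes, -0.14. Of the 20 cytosolic genes, 11 were above 0 as deposited, against 20.5% of all genes, and 19 after rescaling, against 50.6%. The range was -0.17 to 0.44. The mitochondrial set had a median of -0.02 as deposited and 0.12 after rescaling, with 7 and 13 of its 15 members above 0 and a range of -0.40 to 0.32. The 2 medians differed by 0.08 as deposited and 0.12 after rescaling. In each library the median deviation from the wild-type mean was also taken for each set, without Lars2. The cytosolic minus the mitochondrial value was 0.04 ± 0.09 in K320E-skm and 0.03 ± 0.13 in wild-type libraries as deposited (SD, n = 4 each). After rescaling it was 0.07 ± 0.10 against 0.03 ± 0.13, and the genotypes overlapped on both scales. Without K320E-skm 1 the cytosolic median as deposited was 0.00 and the mitochondrial 0.03, so the distance was -0.03 as deposited and -0.01 after rescaling.

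**Figure D3:**
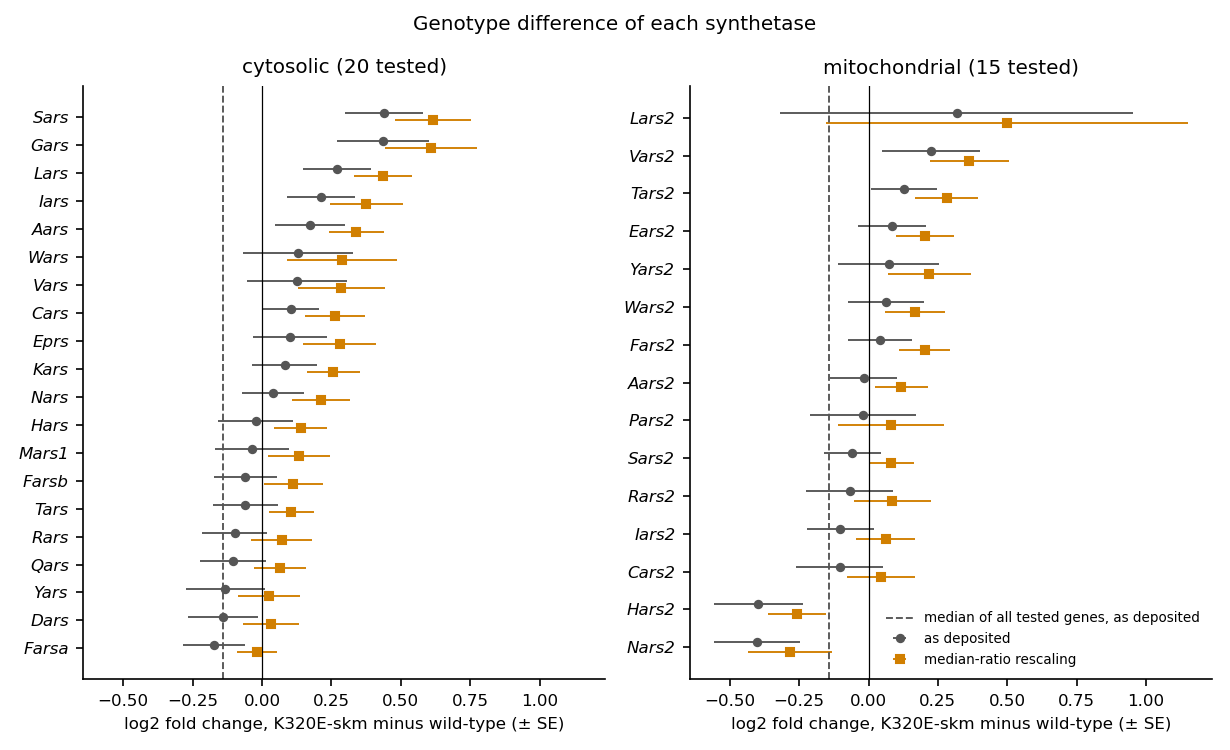
log2 fold change of each tested synthetase, K320E-skm over wild-type, with its standard error, as deposited (grey) and after median-ratio rescaling (orange), and a dashed line at the median of all tested genes as deposited. Of the cytosolic genes 19 of 20 and of the mitochondrial genes 13 of 15 lie to the right of the dashed line as deposited. Hars2 and Nars2 are the lowest points of both panels.

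No member separated the genotypes as deposited, where 0.333% of all genes were higher and 9.59% lower in every K320E-skm than in any wild-type library. After rescaling, 7 of the 20 cytosolic genes were higher without overlap, Aars, Cars, Gars, Iars, Kars, Lars and Sars, against 2.91% of all genes. None was lower, against 2.98%, and none of the mitochondrial genes separated in either direction. Leaving out 1 library can only add to such a count on an unchanged scale. As deposited it gave 2 higher genes without K320E-skm 1 (Cars and Tars2), 4 without K320E-skm 4, and 1 each without wild-type 1 (Vars2) and wild-type 2 (Sars), against 0.953%, 1.28%, 1.65% and 0.786% of all genes. It gave 3 lower genes without wild-type 3 (Farsa, Hars2 and Nars2), and 1 each without K320E-skm 2 (Hars2), K320E-skm 4 (Nars2) and wild-type 2 (Yars), against 16.7%, 15.5%, 13.9% and 16.8%. Any gene without overlap has an exact permutation p of 0.0286, the smallest possible. For the 7 genes, chosen for this on the rescaled values, that p adds nothing to the count. None of them passed adjustment over all genes.

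Sars (chr3:108424865-108445209 in GRCm38) stood at 35.5, 39.0, 37.4 and 28.7 FPKM in K320E-skm 1 to 4 against 25.5, 29.2, 21.4 and 26.5 FPKM in wild-type 1 to 4. Only K320E-skm 4 reached into the wild-type range, below wild-type 2. The log2 fold change was 0.44 (SE 0.14, limma adjusted p = 0.289), and 0.62 after rescaling (SE 0.14, limma adjusted p = 0.311). Rescaled, the means were 37.3 ± 4.65 against 24.1 ± 3.73 FPKM (SD, n = 4 each). Serine, the substrate of the enzyme, is also the product of the pathway of Phgdh and Psat1.

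Gars (chr6:55038007-55079500), the glycine enzyme of both compartments, stood at 24.5, 18.4, 23.3 and 15.1 FPKM in K320E-skm muscle and at 16.3, 15.3, 12.3 and 14.4 FPKM in the wild type. K320E-skm 1, 2 and 3 were above all wild-type libraries and K320E-skm 4 was within them. The log2 fold change was 0.44 (SE 0.16, limma adjusted p = 0.298), and 0.61 after rescaling (limma adjusted p = 0.357). Kars, the other enzyme of both compartments, stood at 26.1, 30.1, 27.4 and 29.5 FPKM in K320E-skm muscle and at 28.4, 28.6, 23.0 and 26.8 FPKM in the wild type, which overlap widely, with a log2 fold change of 0.08 (0.26 rescaled).

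Lars, the leucine enzyme and a known sensor of leucine for mTORC1, stood at 10.8, 11.7, 11.4 and 8.83 FPKM in K320E-skm muscle and at 9.44, 8.50, 7.61 and 9.05 FPKM in the wild type (log2 fold change 0.27, 0.44 rescaled). Iars, its neighbour in the multisynthetase complex, stood at 9.23, 9.48, 12.1 and 8.65 FPKM in K320E-skm muscle and at 8.24, 8.69, 7.62 and 8.70 FPKM in the wild type (0.21, 0.38 rescaled). In both genes K320E-skm 4 was the only K320E-skm library within the wild-type range. Aars, the alanine enzyme with a proofreading site, stood at 11.9, 13.2, 13.4 and 10.3 FPKM against 12.2, 11.2, 9.39 and 10.1 FPKM (0.17, 0.34 rescaled). Cars, the cysteine enzyme, stood at 7.95, 8.68, 8.62 and 8.77 FPKM against 7.43, 8.53, 7.35 and 8.13 FPKM (0.10, 0.26 rescaled), with K320E-skm 1 the only one of its group inside the wild-type range.

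**Figure D4:**
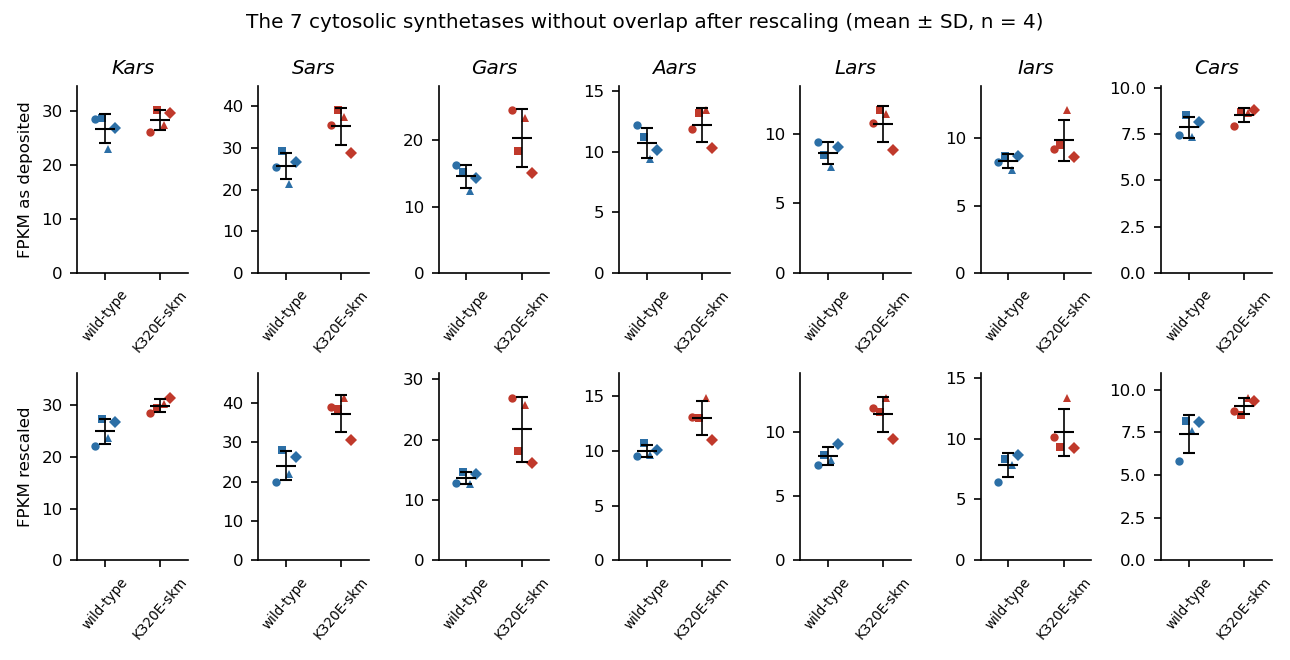
FPKM as deposited (upper row) and after median-ratio rescaling (lower row) of the 7 cytosolic synthetases whose genotypes did not overlap after rescaling, with wild-type in blue, K320E-skm in red, circle, square, triangle and diamond for libraries 1 to 4 of each genotype, and bars for mean ± SD (n = 4). In Aars, Gars, Iars, Lars and Sars the lowest red marker of the lower row is the diamond of K320E-skm 4.

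The lowest fold changes of the cytosolic set belonged to Farsa, at 4.72, 5.27, 5.02 and 5.32 FPKM in K320E-skm muscle and 6.82, 6.11, 5.15 and 5.44 FPKM in the wild type (-0.17, -0.02 rescaled), and to Dars, the aspartate enzyme, at 17.1, 22.2, 17.8 and 18.4 FPKM against 21.9, 23.0, 18.1 and 20.6 FPKM (-0.14, 0.03 rescaled). Both genes overlapped between the genotypes, and the sign for Dars turned with the scale. Eprs, the highest cytosolic gene, stood at 44.1, 52.3, 51.0 and 42.9 FPKM in K320E-skm muscle and 43.6, 52.4, 39.5 and 42.0 FPKM in the wild type (0.10, 0.28 rescaled), also with overlap.

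The 8 enzymes of the multisynthetase complex had a median log2 fold change of 0.02 (0.19 rescaled) and the 12 cytosolic enzymes outside it 0.07 (0.24 rescaled). Of the 7 genes without overlap after rescaling, Iars, Kars and Lars belong to the complex, and Aars, Cars, Gars and Sars do not. The 3 scaffold genes had a median of -0.13 (0.03 rescaled), and Aimp2, one of these scaffolds, was at 38.9 ± 8.22 FPKM in K320E-skm muscle and 46.6 ± 7.98 FPKM in the wild type (SD, n = 4 each; -0.26, -0.08 rescaled). By structural class, the median was 0.07 over 17 class I enzymes (0.20 rescaled) and -0.02 over 17 class II enzymes (0.12 rescaled), with both compartments together. Eprs, which joins an enzyme of each class in 1 protein, was left out of this division.

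The genes with the TGATGNAA letters did not all lie at the upper end. Over the 5 cytosolic genes with a match the log2 fold changes ran from -0.13 to 0.44 with a median of 0.17 (0.03 to 0.61 with a median of 0.34 rescaled). Over the 8 with a promoter entry and no match they ran from -0.17 to 0.44 with a median of -0.05 (-0.02 to 0.62 with a median of 0.12 rescaled). Aars, Gars and Iars are among the genes without overlap after rescaling. Tars and Yars, which also hold the letters, overlapped on both scales, with Tars at -0.06 (0.11 rescaled) and Yars at -0.13 (0.03 rescaled). Sars and Kars separated on the rescaled values without a match in the stretch searched.

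K320E-skm 4 was the lowest of the 4 K320E-skm libraries in 15 of the 20 cytosolic genes and in 3 of the 15 mitochondrial genes on both scales. Over all tested genes it was lowest in 25% as deposited and 26.6% after rescaling. It was also the lowest of its group in the summed cytosolic level, at 311, 327, 321 and 275 FPKM in K320E-skm 1 to 4 against 309, 304, 259 and 281 FPKM in wild-type 1 to 4. The genotypes overlapped in this sum, and K320E-skm 4 was below 3 of the 4 wild-type libraries. Without K320E-skm 4 the log2 fold change as deposited was 0.53 for Sars and 0.56 for Gars, and 4 cytosolic genes, Gars, Iars, Lars and Sars, were higher without overlap as deposited, where 1.28% of all genes were.

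The same library was also low for genes of the stress response and for markers of macrophages. Of 9 tested stress regulators and targets, K320E-skm 4 was the lowest K320E-skm library in 8. Mthfd2, a mitochondrial enzyme of folate metabolism, stood at 9.80, 7.20, 11.6 and 3.07 FPKM in K320E-skm muscle and at 1.40, 0.573, 0.509 and 1.28 FPKM in the wild type, without overlap (log2 fold change 2.11, limma adjusted p = 0.182; 2.24 rescaled). Ddit3, a stress-induced transcription factor, stood at 9.92, 11.7, 15.1 and 9.32 FPKM against 8.17, 7.69, 6.28 and 7.15 FPKM, also without overlap (0.57, limma adjusted p = 0.271; 0.73 rescaled). Asns and Trib3 were too low to be tested. Asns stood at 6.60, 2.097, 5.90 and 0.963 FPKM in K320E-skm muscle and between 0.489 and 0.817 FPKM in the wild type, and Trib3 at 3.91, 1.50, 3.94 and 0.990 FPKM against 0.184 to 0.700 FPKM. In both, K320E-skm 4 was the lowest of its group and still above every wild-type library.

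The transcript of Atf4 itself overlapped between the genotypes. It stood at 58.2, 50.6, 53.1 and 39.1 FPKM in K320E-skm muscle and at 59.6, 39.1, 48.7 and 49.6 FPKM in the wild type (log2 fold change 0.03, limma adjusted p = 0.94; 0.21 rescaled). Psat1 of the serine pathway stood at 2.77, 2.40, 3.44 and 0.648 FPKM against 0.870, 1.34, 0.188 and 0.231 FPKM (0.97, limma adjusted p = 0.289; 1.07 rescaled), and Phgdh, the first enzyme of that pathway, at 4.48, 1.48, 2.18 and 0.601 FPKM against 1.60, 2.34, 0.540 and 0.311 FPKM (0.50, limma adjusted p = 0.546; 0.61 rescaled). Over the 9 tested stress genes, the median log2 fold change was 0.57 (0.73 rescaled), and none passed the adjusted threshold. All 9 were above 0 on both scales, against 20.5% of all genes as deposited and 50.6% after rescaling. Mthfd2, Psat1 and Phgdh reached 1 FPKM in too few wild-type libraries for the filter and passed it with their K320E-skm values. The counts and medians over the 9 are therefore not free of this selection. Cebpb, Ddit3 and Mthfd2, 3 of the 9, were higher without overlap as deposited, against 0.333% of all genes, and with Atf5 and Shmt2 5 of the 9 after rescaling, against 2.91%.

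Macrophage markers summed to 141, 117, 100 and 50.9 FPKM in K320E-skm 1 to 4 against 136, 102, 46.3 and 47.8 FPKM in wild-type 1 to 4. All 10 tested of 12 markers were lowest in K320E-skm 4 within its group, and none of the 12 was at 0 in any library. The interferon-induced genes, among which the tryptophan enzyme Wars is often counted, summed to 18.5 to 51.4 FPKM in K320E-skm muscle and 15.1 to 42.7 FPKM in the wild type. Wars itself stood at 10.1, 5.85, 7.26 and 4.87 FPKM in K320E-skm muscle and at 7.46, 6.15, 4.78 and 6.39 FPKM in the wild type, with overlap. Fibroblast markers summed to 202 to 304 FPKM against 184 to 522 FPKM, and endothelial markers to 33.0 to 43.2 FPKM against 40.3 to 52.4 FPKM. The part of these cell types in the synthetase values was not tested.

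No mitochondrial synthetase separated the genotypes on either scale. Hars2, the histidine enzyme, stood at 2.39, 2.93, 2.34 and 2.46 FPKM in K320E-skm muscle and at 5.35, 3.11, 2.80 and 3.66 FPKM in the wild type. Only K320E-skm 2 was above the lowest wild-type library, and the log2 fold change was -0.40 (SE 0.16, limma adjusted p = 0.314; -0.26 rescaled). Nars2, the asparagine enzyme, stood at 1.40, 1.86, 1.29 and 2.17 FPKM against 2.34, 3.54, 2.16 and 2.17 FPKM. Here K320E-skm 4 reached the wild-type range, which wild-type 2 stretched upwards (-0.40, SE 0.16, limma adjusted p = 0.305; -0.28 rescaled).

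At the upper end stood Vars2 for valine and Tars2 for threonine. Vars2 reached 2.33, 3.32, 3.86 and 3.03 FPKM in K320E-skm muscle and 3.86, 1.93, 2.28 and 2.24 FPKM in the wild type, where wild-type 1 was level with the highest K320E-skm library (0.23, 0.36 rescaled). Tars2 reached 4.45, 5.74, 6.25 and 5.61 FPKM against 5.17, 4.43, 5.28 and 4.85 FPKM, with K320E-skm 1 inside the wild-type range (0.13, 0.28 rescaled). Iars2, at 7.42, 9.69, 8.86 and 8.32 FPKM against 10.1, 7.88, 9.17 and 9.96 FPKM, had a log2 fold change of -0.10 that turned to 0.06 after rescaling. Fars2, at 7.82, 8.15, 7.95 and 6.86 FPKM against 8.49, 6.56, 7.01 and 7.83 FPKM, was at 0.04 (0.20 rescaled). Without Lars2 the mitochondrial synthetases summed to 48.5, 58.9, 55.0 and 51.8 FPKM in K320E-skm muscle and to 65.2, 49.7, 51.4 and 56.0 FPKM in the wild type, ranges that overlapped.

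Lars2, the mitochondrial leucine enzyme (chr9:123366927-123462666 in GRCm38), stood apart from all other synthetases. It was listed at 432, 431, 530 and 1726 FPKM in K320E-skm 1 to 4 against 852, 936, 652 and 135 FPKM in wild-type 1 to 4, and made up 70.7% to 97.1% of the summed mitochondrial level. K320E-skm 4 was the highest and wild-type 4 the lowest of the 8 libraries, 12.7-fold apart, and the genotypes overlapped (log2 fold change 0.32, SE 0.64, limma adjusted p = 0.821; 0.50 rescaled). Without K320E-skm 4 the log2 fold change as deposited was -0.16, and without wild-type 4 it was -0.32. The median ratio between highest and lowest library was 1.75 over the other 15 mitochondrial genes.

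The order of the libraries in Lars2 was that of genes at a ribosomal RNA locus on chromosome 17. Gm42418, a noncoding gene there that RefSeq lists as the 18S-related pseudogene Rn18s-rs5, was at 454, 415, 521 and 1897 FPKM in K320E-skm muscle and at 820, 915, 607 and 139 FPKM in the wild type. The level of Lars2 was 0.910 to 1.07 times that of Gm42418 in all 8 libraries. CT010467.1, annotated as ribosomal RNA at the same locus, was at 528, 465, 625 and 2224 FPKM against 994, 1097, 713 and 130 FPKM, with the same highest and lowest library. The Lars2 transcript compared is 3894 bases long with a 3′ untranslated region from base 2906, and bases 3233 to 3329 of it align to the transcript of AA474408 at 94.8% identity and bases 3278 to 3349 to that of Gm15564 at 98.6%. AA474408 was listed at 0.183 to 0.309 FPKM over the 8 libraries, 1.69-fold apart, and was highest in wild-type 4. Gm15564 ran from 0.288 FPKM in wild-type 4 to 2.53 FPKM in K320E-skm 4, 8.78-fold apart. Its lowest and highest library were those of Lars2. No stretch of Lars2 was found to align to the transcripts of Gm42418 or CT010467.1. Fragments from repeated stretches such as those of AA474408 and Gm15564 can be assigned to more than one gene. Whether fragments of ribosomal RNA or of repeats entered the Lars2 values was not tested.

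**Figure D5:**
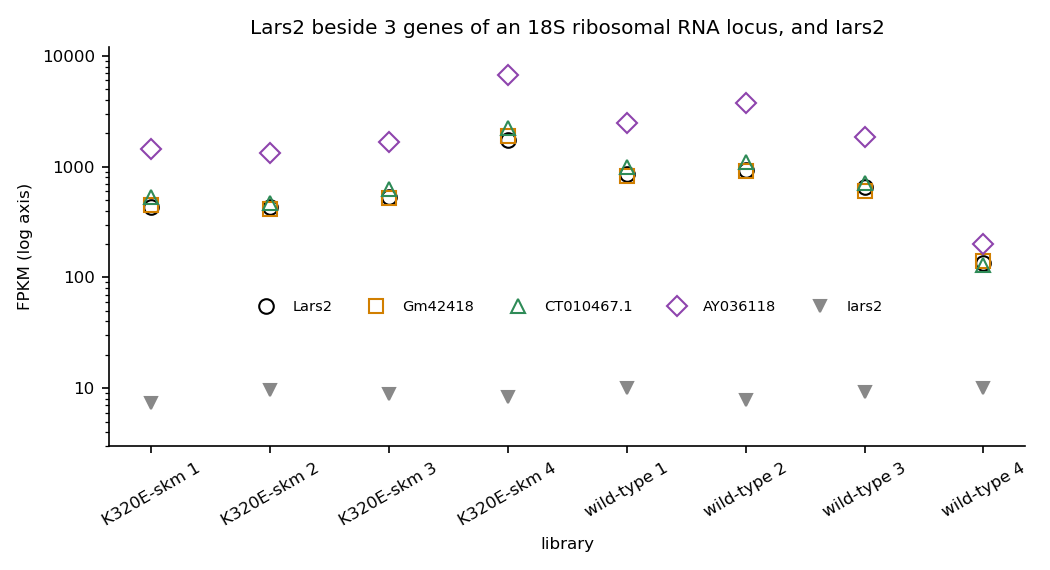
FPKM of Lars2, of 3 genes of a ribosomal RNA locus on chromosome 17 and of Iars2 in the 8 libraries, on a log axis. Lars2 and Gm42418 lie on each other in every library, while Iars2 stays between 7.42 and 10.1 FPKM.

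Ratios of the cytosolic to the mitochondrial enzyme for the same amino acid do not depend on the scale of a library. In the 15 pairs other than Lars to Lars2, the log2 ratio in K320E-skm minus that in the wild type had a median of 0.09 and ran from -0.25 to 0.64. It was above 0 in 9 pairs, and none of the 15 separated the genotypes. The ratio of Sars to Sars2 was 12.1, 11.8, 11.5 and 8.52 in K320E-skm muscle and 6.91, 8.82, 7.25 and 7.28 in the wild type. Again only K320E-skm 4 overlapped with wild-type muscle, in its case with wild-type 2. The ratio of Hars to Hars2 was 3.21, 2.91, 3.24 and 2.77 against 1.71, 2.83, 2.20 and 1.99. These 2 genes lie head to head and overlap by 198 bases, so fragments near their starts may be shared between them. The largest difference was that of Nars to Nars2, at 14.8, 11.5, 16.6 and 8.14 against 8.98, 5.22, 8.97 and 9.16, where K320E-skm 4 lay below 3 wild-type libraries.

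Other genes around tRNA charging were compared in the same fit, and none passed the adjusted threshold on either scale. The 12 tested genes of other charging and editing steps had a median log2 fold change of -0.15 (-0.03 rescaled), close to the median gene. Tarsl2, a second cytosolic threonine enzyme, was at 10.7 ± 1.01 FPKM in K320E-skm muscle and 13.4 ± 1.45 FPKM in the wild type (SD, n = 4 each; -0.30, -0.14 rescaled). Gatc, a subunit of the amidotransferase that makes mitochondrial glutaminyl-tRNA, was at 6.29 ± 0.867 against 7.97 ± 0.706 FPKM (-0.30, -0.14 rescaled). Of these 12 genes 1, Gatc, was lower without overlap as deposited, near the 9.59% of all genes, and 0 were after rescaling. The 16 tested genes of mitochondrial tRNA maturation had a median of -0.03 (0.11 rescaled). Of these, Trmt5, a tRNA methyltransferase, was at 2.12 ± 0.120 against 2.86 ± 0.320 FPKM (-0.30, -0.17 rescaled), and Yrdc, which acts in the threonylcarbamoyl modification of tRNA, at 4.81 ± 0.597 against 3.35 ± 1.16 FPKM (0.45, 0.60 rescaled). As deposited 2 of the 16, Osgepl1 and Trmt5, were lower without overlap, against 9.59% of all genes, and after rescaling 2, Elac2 and Yrdc, were higher, against 2.91%.

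On the side of translation, the 8 cytosolic elongation genes had a median log2 fold change of 0.04 (0.22 rescaled), near that of the cytosolic synthetases. Xpot, which exports tRNA from the nucleus, was at 3.34, 3.01, 3.34 and 2.31 FPKM in K320E-skm muscle and at 2.80, 1.97, 2.30 and 2.20 FPKM in the wild type (0.27, 0.40 rescaled). Eef2, the translocating elongation factor, was at 211 ± 20.9 against 195 ± 22.5 FPKM (0.12, 0.30 rescaled). After rescaling 3 of the 8, Eef1a2, Eef2 and Xpot, were higher without overlap, against 2.91% of all genes, and 0 were as deposited. The 11 tested mitochondrial translation factors had a median of -0.16 (0.00 rescaled). Mtrf1, of the release factor family, was at 3.55 ± 0.482 against 4.46 ± 0.437 FPKM (-0.27, -0.12 rescaled) and overlapped. Mtif2 and Mrrf, an initiation and a recycling factor (-0.21 and -0.17, -0.06 and -0.03 rescaled), were lower without overlap as deposited, 2 of 11 against 9.59% of all genes, and overlapped after rescaling.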

How the data were processed

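Total RNA of 8 tibialis anterior samples was extracted with Trizol and made into libraries with a stranded kit, per the labels' protocols. The authors deposited 1 table of FPKM per Ensembl gene. Per the submitters' processing notes, the tools were CASAVA, TopHat2 2.0.10 and Cufflinks 2.1.1, on build mm10. Neither the annotation release nor the strand setting is given in the sources used here. Cufflinks divides fragments among overlapping genes and repeats, so their values are uncertain. A listed 0 may stand for an estimate that failed.

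GENCODE M21 (GRCm38) gave symbols and coordinates for 47864 of the 48328 identifiers. Genotype was taken from the sample titles, 0 columns were left unmapped, and 0 pairs of libraries were identical. The labels do not describe the origin of the samples further, so p-values measure only the spread between these samples. The table holds no counts, so the depth is unknown. From the commonest ratio between libraries among low values, depth relative to the lowest ran from 1.00 (K320E-skm 4) to 1.30 (wild-type 3).

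log2(FPKM + 1) was tested with limma 3.58.1 in R 4.3.3, two-sided, with a term for genotype and empirical Bayes with a trend, on 10521 genes with 1 FPKM or more in at least 4 libraries (6 residual degrees of freedom). Benjamini-Hochberg adjustment covered all of them, with a threshold of 0.05. With the pseudocount of 1, the fold change of a low gene understates its FPKM ratio. Median-ratio rescaling divided each library by the median ratio of its genes to their geometric means. For a single value, an exact two-sided permutation test ran over all 70 assignments of 4 against 4. Tested on simulated data for this comparison (10521 genes), the fit found 9 of 100 genes changed by log2 0.5 and 75 of 100 changed by log2 1, with 4 false calls. The changed genes were drawn only from those above the level given in the Results, and noise was drawn independently for each gene. The alternatives tried were median-ratio and quantile scaling, a sex term, a replicate block, robust empirical Bayes, a pseudocount of 0.1, a filter of 5 FPKM or none, and leaving out each library. Leaving out Lars2, and rescaling together with leaving out each library, were added after the data were seen. The main Lars2 transcript of GENCODE was aligned to all others with blastn 2.17.0. Python 3.11.15, pandas 2.3.3 and matplotlib 3.10.9 were used.

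The members, lists, tests and the rule for named genes were chosen with earlier results of these data known. By that rule, values in every library are given for members without overlap on either scale, for the 3 largest and 2 smallest log2 fold changes of each set and for its 3 highest and its lowest wild-type mean. Of the other lists up to 3 genes by smallest p are named, and of the stress list Atf4, Ddit3, Asns, Trib3 and Mthfd2. Phgdh, Psat1, Atf5, Cebpb, Shmt2, Elac2, Eef1a2, Tars, Yars, Wars, Hars, Sars2 and the genes set beside Lars2 were chosen after their values had been seen. Acta1 was not analysed here. The promoter stretches of 1 gene, Aars, are not reported here.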

Additional observations from a re-analysis of the deposited data

Results flagged for a closer look

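All 36 synthetases were screened in both genotypes, 72 groups of 4 libraries, for a library far from the other 3. By chance about 1 in 20 groups would be marked, and 2 were. Lars2 was at 1726 FPKM in K320E-skm 4, against 431 to 530 FPKM in the other K320E-skm libraries. The gap to the nearest library was 0.924 of the whole range. Nars2 was at 3.54 FPKM in wild-type 2, against 2.16 to 2.34 FPKM in the other wild-type libraries, with a gap of 0.873 of the range. Without that library the log2 fold change of Nars2 was -0.28 (limma adjusted p = 0.349), against -0.40 with it (limma adjusted p = 0.305). Gm42418 of the ribosomal RNA locus was at 1897 FPKM in the same library as the high Lars2 value, and its part in that value was not tested.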

How the results depend on the processing

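No synthetase passed the adjusted threshold under any alternative run. As deposited, 2 of all genes passed, and 1 passed with no filter, with a filter of 5 FPKM and with robust empirical Bayes, and 0 to 3 when 1 library was left out. The count of synthetases higher without overlap moved from 0 to 7 with median-ratio rescaling (2.91% of all genes) and to 6 with quantile normalization. It moved to 0 to 4 when 1 library was left out (0.397% to 1.65% of all genes). The count lower without overlap moved from 0 to 1 with quantile normalization (Hars2) and to 0 to 3 when 1 library was left out (9.96% to 16.8% of all genes). The shares of all genes were not computed under quantile normalization, so its counts cannot be read against them. The cytosolic median log2 fold change moved from 0.06 to 0.24 with rescaling and 0.22 with quantile normalization, and ran from 0.00 to 0.07 over left-out libraries. The mitochondrial median moved from -0.02 to 0.12 and 0.11, and ran from -0.07 to 0.05. Their difference was 0.08, 0.12 with rescaling and 0.11 with quantile normalization, and ran from -0.03 to 0.14.

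With rescaling and 1 library left out, 0 to 2 of all genes passed. Then 7 to 10 synthetases were higher without overlap (8 without wild-type 1, 9 without K320E-skm 1, wild-type 2 or wild-type 3), against 3.69% to 6.52% of all genes. Lower without overlap were 0 to 1, against 3.99% to 6.66% of all genes. The cytosolic median ran from 0.15 to 0.25 (0.20 without K320E-skm 3, 0.23 without wild-type 3 or 4), the mitochondrial from 0.08 to 0.16, and their difference from -0.01 to 0.17. With rescaling alone, 8 of the 20 cytosolic log2 fold changes (Dars, Farsb, Hars, Mars1, Qars, Rars, Tars and Yars) and 6 of the 15 mitochondrial ones (Aars2, Cars2, Iars2, Pars2, Rars2 and Sars2) went from below to above 0, and 0 the other way. With rescaling and 1 library left out together, the signs of single members were not compared. Under the other alternatives, the members named by the rule that changed sign were Dars, Iars2, Lars2 and Fars2. Dars was at 0.03 with rescaling and 0.02 with quantile normalization, and Iars2 at 0.06 and 0.04. Lars2 was at -0.16 without K320E-skm 4 and -0.32 without wild-type 4, in a range up to 0.60 over left-out libraries. Fars2 was at -0.01 without wild-type 2, in a range up to 0.10. The cause was not tested.

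Libraries of the same number in both genotypes had correlated deviations of 0.16, 0.02, 0.04 and 0.04, so the numbers were not taken to pair them. With the replicate block, 2 genes and 0 synthetases passed. The absolute depth is unknown, so no counting error can be given for low genes such as Mars2, Pars2 and Wars2.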
